A study of Mus musculus with 9 samples.

Results

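The 53 genes described here act in G2, mitosis and cytokinesis, and were read in alveolar macrophages with and without Suz12. They were taken by symbol from a list of cell division genes, by function, and all 53 were found among the 27179 genes of the count table. All 53 also passed the filter on low counts, which left 12840 tested genes. Alveolar macrophages are the phagocytes that live in the airspaces of the lung, and here they were sorted by flow cytometry from lungs of C57BL/6 mice aged 1 week. One group holds 4 libraries of wild type mice and the other 5 libraries of Suz12 cKO mice, in which the gene for a core subunit of Polycomb repressive complex 2 is deleted conditionally. The sources used here name neither the Cre driver nor the deleted exons, the sex of the mice, or whether a library is 1 mouse or a pool. The libraries of a group are described as biological replicates.

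Cells enter mitosis when cyclin-dependent kinase 1 (CDK1), bound to a B-type cyclin, is freed from inhibition. Polo-like and Aurora kinases then build the spindle, the kinetochores attach chromosomes to it, and a checkpoint holds back the anaphase-promoting complex until every chromosome is attached. Most of these genes are transcribed in a wave late in the cell cycle, driven by B-MYB with the MuvB complex and by FOXM1, and are repressed in resting cells by the DREAM complex. Alveolar macrophages are seeded around birth and maintain themselves by local division, so transcripts of dividing cells are a usual part of their profile in young mice.

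The wave is known to act through 2 promoter elements, the CHR element with the core TTTGAA, to which MuvB binds, and the CCAAT box of NF-Y. RefSeq promoter windows of GRCm38.p6, from 250 bases before to 50 bases after a gene's start, were at hand for 44 members in 47 windows. Both motifs were searched on both strands, and neither contains the other. TTTGAA stood in 33 of the 47 windows (70.2%), against 17.9% of all 32851 windows. CCAAT stood in 37 (78.7%), against 37.4% of all windows, and both together in 29 (61.7%), against 6.95%. Among members called lower in knockout, described below, 4 of 8 windows held TTTGAA and 6 of 8 CCAAT. Among the other members 29 of 39 windows held TTTGAA and 31 of 39 CCAAT. A match describes these letters only. The 250 bases before the start are shown for 4 of the 5 members whose groups did not overlap (no window was at hand for Pbk) and for Top2a, which was not called, with TTTGAA and CCAAT in capitals on either strand. Cdk1 (minus strand, chr10:69352913-69353162) carried both, Cks1b (minus strand, chr3:89418292-89418541) both, Cks2 (plus strand, chr13:51644982-51645231) CCAAT without TTTGAA, Birc5 (plus strand, chr11:117848987-117849236) neither, and Top2a (minus strand, chr11:99024190-99024439) both.
Cdk1: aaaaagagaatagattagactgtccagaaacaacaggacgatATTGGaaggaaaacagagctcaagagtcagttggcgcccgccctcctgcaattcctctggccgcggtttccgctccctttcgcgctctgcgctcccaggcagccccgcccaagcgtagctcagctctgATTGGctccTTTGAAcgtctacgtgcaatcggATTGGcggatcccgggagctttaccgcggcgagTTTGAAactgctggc
Cks1b: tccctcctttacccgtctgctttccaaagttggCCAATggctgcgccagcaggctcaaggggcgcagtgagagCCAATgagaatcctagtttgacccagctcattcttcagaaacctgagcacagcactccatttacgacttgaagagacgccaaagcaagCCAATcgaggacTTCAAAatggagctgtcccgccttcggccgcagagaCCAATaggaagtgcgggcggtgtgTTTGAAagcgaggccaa
Cks2: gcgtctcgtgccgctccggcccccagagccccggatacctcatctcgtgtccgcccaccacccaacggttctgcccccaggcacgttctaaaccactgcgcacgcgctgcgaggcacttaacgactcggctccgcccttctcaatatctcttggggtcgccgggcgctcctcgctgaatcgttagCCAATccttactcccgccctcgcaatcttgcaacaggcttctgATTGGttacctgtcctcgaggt
Birc5: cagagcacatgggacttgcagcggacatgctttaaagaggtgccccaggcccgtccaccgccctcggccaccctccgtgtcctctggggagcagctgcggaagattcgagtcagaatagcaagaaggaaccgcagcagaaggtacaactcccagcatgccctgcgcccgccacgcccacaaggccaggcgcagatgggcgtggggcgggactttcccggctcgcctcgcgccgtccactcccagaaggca
Top2a: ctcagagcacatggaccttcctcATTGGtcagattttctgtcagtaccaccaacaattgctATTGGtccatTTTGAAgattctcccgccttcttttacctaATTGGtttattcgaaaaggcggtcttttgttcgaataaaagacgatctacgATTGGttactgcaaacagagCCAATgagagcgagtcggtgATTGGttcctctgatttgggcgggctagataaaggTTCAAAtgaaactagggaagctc

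Wild type libraries held between 13.8 and 25.3 M counts and knockout libraries between 18.6 and 45.6 M. Identifiers without a symbol took 2.749 to 4.427% of the counts in wild type and 0.875 to 1.199% in knockout. Levels are in CPM, the counts of a gene per M counts of the library after TMM scaling, which corrects for differences in RNA composition. Suz12 was lower in every library labelled knockout. It stood between 51.7 and 76.6 CPM in the wild type libraries. In knockout libraries 1 to 5 it stood at 11.9, 14.7, 21.8, 13.1 and 18.5 CPM, lowest in library 1 and highest in library 3. How the remaining Suz12 transcript relates to the levels of the members was not tested. All 12 alveolar macrophage markers examined were detected in every library, with Siglecf at 372 to 502 CPM. Of the 12, 4 were lower in knockout (Car4, Krt79, Olr1 and Fabp5) and 1 was higher (Marco), where 11% of all tested genes were lower and 8.97% higher. Car4 stood at 1067 to 1365 CPM in wild type and 317 to 804 CPM in knockout.

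Together the 53 members made up 2673, 2786, 2549 and 2627 CPM in wild type libraries 1 to 4, and thus differed little between wild type libraries. In knockout libraries 1 to 5 the sum was 2951, 2355, 1595, 2348 and 2241 CPM. Knockout library 1 lay above every wild type library and the other 4 below all of them, so the groups overlapped. The mean sum was 2659 ± 99.3 CPM (SD, n = 4) in wild type and 2298 ± 482 CPM (SD, n = 5) in knockout, and 2474 ± 322 CPM (SD, n = 4) in knockout without library 3. The spread within the knockout group was thus larger than the distance between the group means. In bulk RNA a smaller share of dividing cells and less of each transcript per cell cannot be told apart.

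**Figure D1:**
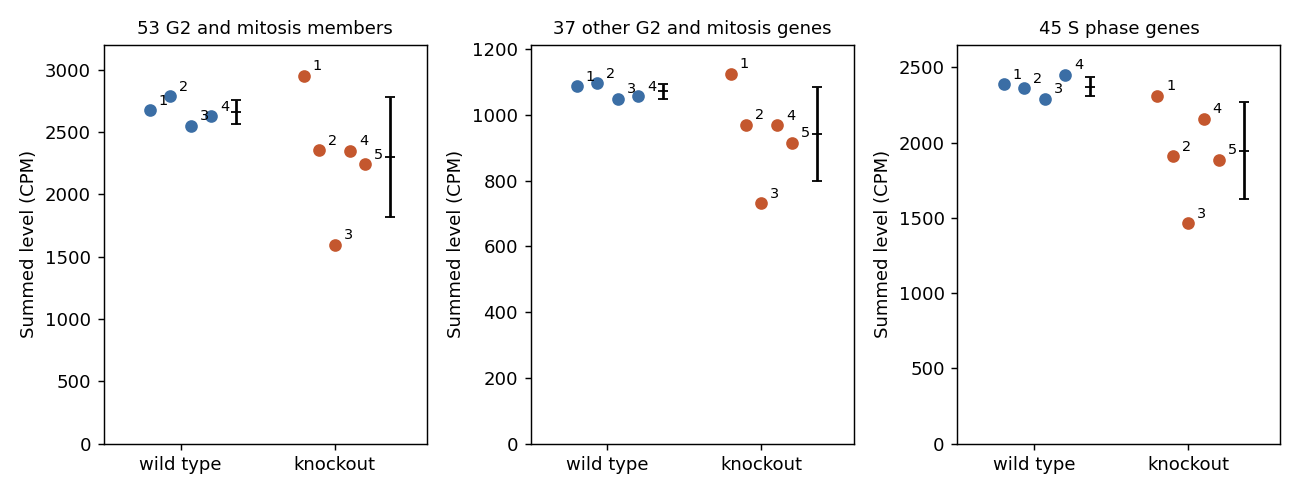
Summed level in CPM (vertical axis, from 0) of the 53 members, of 37 other G2 and mitosis genes and of 45 S phase genes in each library. Points are libraries with their replicate number, and the black mark and bar are the mean and SD of the group. For the members, wild type libraries sit between 2549 and 2786 CPM, and knockout libraries between 1595 and 2951 CPM.

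The highest and the lowest knockout library were the same for most members, while the other 3 changed places from gene to gene. Library 3 was the lowest of the 5 for 51 of the 53 members (96.2%), where it was the lowest for 30.1% of all tested genes. Library 1 was the highest for 49 members (92.5%), where it was the highest for 16.2% of tested genes. The level in library 1 was a median of 1.87 times that in library 3 over the members, and 1.0 times over all tested genes. Library 3 stood below every wild type library for 50 members, against 23.6% of tested genes, and above for 0, against 27.3%. Library 1 stood below every wild type library for 5 members, against 19.4% of tested genes, and above for 18 of 53, against 26.2%.

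**Figure D2:**
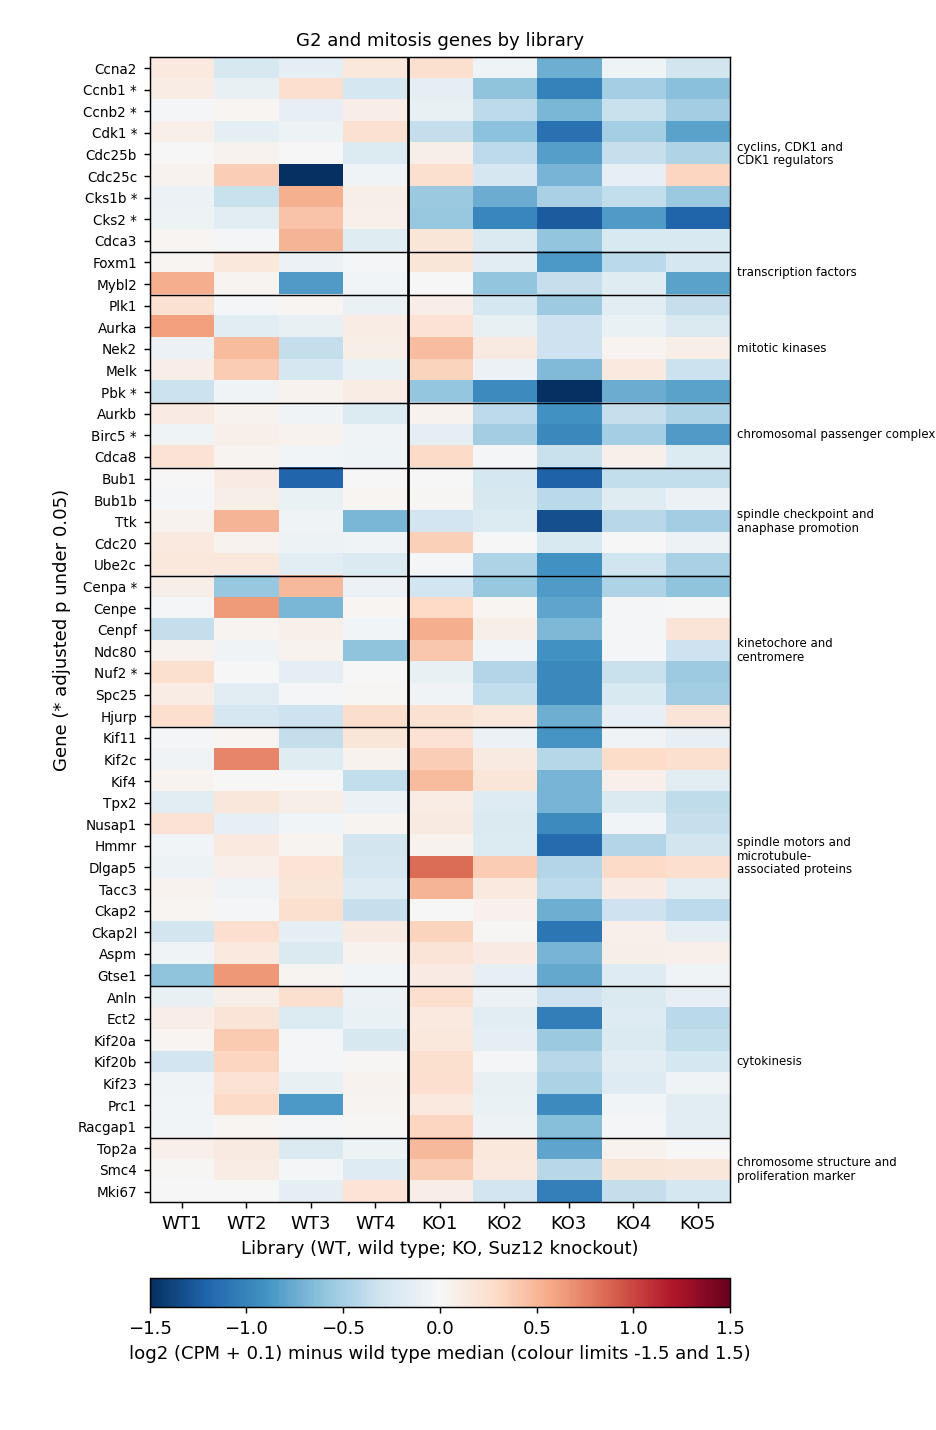
Log2 of CPM plus 0.1 for each member (rows, grouped by role) in each library (columns), minus the median of the wild type libraries for that gene. Blue is lower and red higher than wild type, colours stop at 1.5 in each direction, and an asterisk marks an adjusted p under 0.05. The column of knockout library 3 is blue for nearly all genes, and that of library 1 is near white or red for most. Cdc25c has 0 counts in wild type library 3.

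The comparison of knockout with wild type asks which of these transcripts differ without Suz12. By the edgeR quasi-likelihood test, adjusted over all tested genes at 0.05, 9 members fell (17.0%), 0 rose and 44 were not called. Among all tested genes 11% were lower and 8.97% higher. The median log2 fold change (knockout minus wild type) was -0.23 over the members and 0.04 over all tested genes, and 43 members were below 0 and 10 above, against 46% and 54% of tested genes. For 5 members (Cdk1, Cks1b, Cks2, Pbk and Birc5) every knockout library lay below every wild type library. That share of 9.43% is near the 9.87% of all tested genes. The count of 9 became 5 without wild type library 1 (8.87% of tested genes lower), knockout library 2 (8.53%) or knockout library 5 (8.69%). It was 6 without wild type library 4 (8.57%), knockout library 3 (11.1%) or knockout library 4 (9.77%), 7 without wild type library 2 (11.5%) or 3 (9.53%), and 13 without knockout library 1 (9.06%). With libraries scaled by totals alone 4 members were lower (7.89% of tested genes), and with replicate number as a block 6 were (8.59%). Without knockout libraries 1 and 3, a choice made after seeing the data, 10 were lower (9.12%). DESeq2 (12.6%), a stricter filter (11.9%), thinning to equal depth (11.5%) and no filter (6.94%) each gave 9, and voom (11.1%) gave 8.

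**Figure D3:**
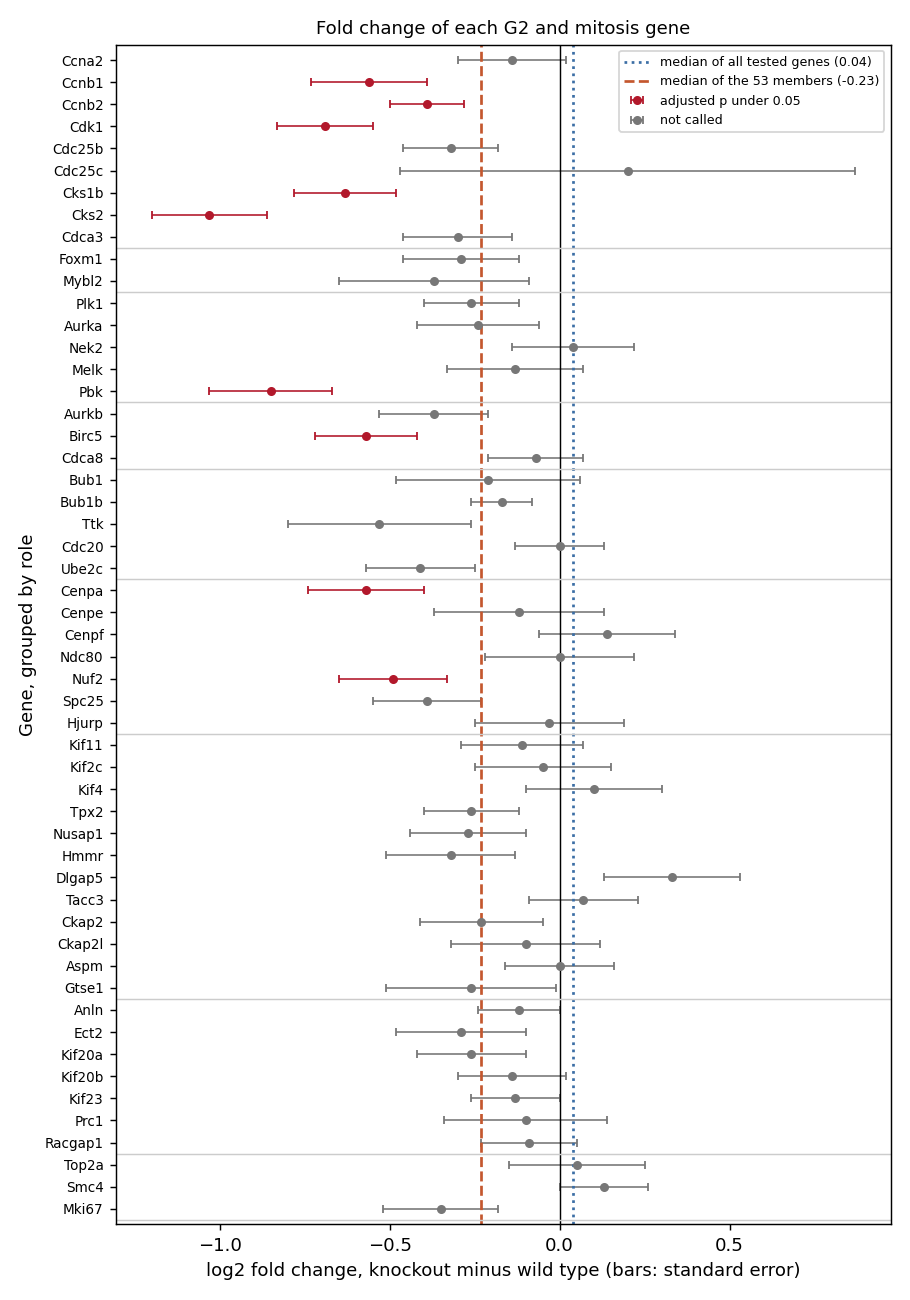
Log2 fold change, knockout minus wild type, of each member with its standard error (horizontal axis), grouped by role along the vertical axis. Red points passed an adjusted p of 0.05 by edgeR. The dashed line is the median of the members (-0.23) and the dotted line that of all tested genes (0.04).

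The engine of mitotic entry held 5 of the 9 called genes. Of its own 9 members 5 were called, where 11% of all tested genes were lower. The counts of the other roles stand beside the same 11%, and the roles were not tested against each other. Cdk1, the catalytic subunit of the mitotic kinase (Entrez 12534, chromosome 10, positions 69335146 to 69352912 of GRCm38), stood at 77.9, 67.2, 69.9 and 86.8 CPM in wild type libraries 1 to 4. In knockout libraries 1 to 5 it stood at 57.6, 48.2, 33.8, 51.6 and 42.1 CPM. No knockout library reached the lowest wild type library, and Cdk1 fell by 0.69 on the log2 scale (SE 0.14, adjusted p = 0.00321 by edgeR), a change of -38.2%. Cks2 is a small protein that binds CDK1 and helps it find phosphorylated substrates (Entrez 66197, chromosome 13, positions 51645232 to 51650662). It gave 27.5, 25.9, 38.9 and 30.6 CPM in wild type and 19.5, 14.7, 12.2, 16.1 and 12.6 CPM in knockout. Its log2 fold change of -1.03 (SE 0.17, adjusted p = 0.000811 by edgeR) was the lowest of the 53, with no overlap of the groups.

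Cks1b, the close paralog of Cks2 that also serves the ubiquitin ligase for p27, stood at 45.7, 38.5, 70.4 and 51.6 CPM in wild type. The knockout libraries gave 33.0, 28.9, 34.5, 37.5 and 32.9 CPM, all below wild type. It fell by 0.63 on the log2 scale (SE 0.15, adjusted p = 0.0103 by edgeR). Knockout library 3 was the lowest knockout library for all members but Cks1b and Mybl2. At 757 and 694 bases, Cks1b and Cks2 are the shortest members. After a correction for gene length, Cks1b was not called at -0.25 (adjusted p = 0.18 by edgeR), whereas Cks2 was called at -0.62 (adjusted p = 0.0173).

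The mitotic cyclins B1 and B2 fell as well. Ccnb1, the cyclin B1 partner of CDK1, was at 29.0, 24.9, 31.9 and 22.4 CPM in wild type and 24.3, 17.6, 13.3, 18.8 and 17.3 CPM in knockout. Ccnb2, the cyclin B2 partner, was at 66.8, 69.9, 62.8 and 73.2 CPM in wild type and 63.5, 52.0, 42.6, 54.1 and 47.7 CPM in knockout. In each gene knockout library 1 alone reached the wild type range. The log2 fold change was -0.56 for Ccnb1 (SE 0.17, adjusted p = 0.0312 by edgeR) and -0.39 for Ccnb2 (SE 0.11, adjusted p = 0.0257). Both calls ended with libraries scaled by totals alone (adjusted p = 0.0843 and 0.129 by edgeR), and that of Ccnb2 after the length correction (0.0877). The call of Ccnb1 also ended without wild type library 1 or 3 or knockout library 2, 3, 4 or 5 (0.0559 to 0.0823), and that of Ccnb2 without wild type library 1, 2 or 4 or knockout library 2 or 5 (0.05 to 0.075).

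The other members of this role did not pass the test. Cdc25b, a phosphatase that removes the inhibitory phosphates of CDK1, stood at 86.8, 89.6, 86.0 and 75.1 CPM in wild type and 92.2, 65.7, 48.7, 68.2 and 63.1 CPM in knockout. Its log2 fold change was -0.32 (SE 0.14, adjusted p = 0.139 by edgeR). Library 1 was above all wild type libraries and the other 4 knockout libraries below all of them, and without library 1 Cdc25b was called (-0.46, adjusted p = 0.02). Cdc25b was also called without knockout libraries 1 and 3 (-0.37, adjusted p = 0.034 by edgeR). Ccna2, the cyclin of S phase and G2, had a log2 fold change of -0.14 (SE 0.16), and Cdca3, which takes part in degrading the CDK1 inhibitor WEE1, one of -0.30 (SE 0.16). Cdc25c, with 0 counts in wild type library 3, was the least abundant of the role at 3.16 ± 2.18 CPM (SD, n = 4) in wild type and 3.68 ± 1.02 CPM (SD, n = 5) in knockout.

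Of the mitotic kinases, 1 of 5 fell. Pbk, a mitotic MAP kinase kinase-like protein (Entrez 52033, chromosome 14, positions 65805911 to 65817822), stood at 23.8, 28.8, 30.9 and 32.3 CPM in wild type and 19.9, 15.4, 10.2, 17.7 and 17.0 CPM in knockout. The groups did not overlap, and the log2 fold change was -0.85 (SE 0.18, adjusted p = 0.00399 by edgeR). Cdk1, Cks2 and Pbk were called lower in the main fit and in all 19 alternatives, which include the omission of each library. Plk1 and Aurka, the kinases of spindle poles and centrosomes, had log2 fold changes of -0.26 (SE 0.14) and -0.24 (SE 0.18). Melk gave -0.13 (SE 0.20) and Nek2, a centrosome kinase, 0.04 (SE 0.18), and none of these 4 was called.

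In the chromosomal passenger complex, which corrects faulty attachments and guides cytokinesis, 1 of 3 members fell. Birc5, which encodes survivin (Entrez 11799, chromosome 11, positions 117849237 to 117855743), was at 48.0, 52.7, 51.9 and 48.5 CPM in wild type and 45.8, 34.9, 25.7, 35.1 and 27.9 CPM in knockout. The groups did not overlap, though knockout library 1 came within a few CPM of wild type. It fell by 0.57 on the log2 scale (SE 0.15, adjusted p = 0.0152 by edgeR), and with libraries scaled by totals alone the adjusted p was 0.0538. Its catalytic partner Aurkb stood at 46.5, 44.3, 41.1 and 37 CPM in wild type and 44.1, 32.6, 22.7, 33.6 and 30.9 CPM in knockout. Only knockout library 1 reached the wild type range of Aurkb, which was at -0.37 (SE 0.16, adjusted p = 0.128 by edgeR). Leaving out that library gave an adjusted p of 0.0345. Cdca8, which encodes borealin, gave -0.07 (SE 0.14).

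At kinetochores and centromeres 2 of 7 members fell. Nuf2, a subunit of the NDC80 complex that grips microtubules, stood at 38.2, 32.4, 29.4 and 32.0 CPM in wild type and 29.7, 23.7, 16.4, 25.5 and 22.0 CPM in knockout. It fell by 0.49 on the log2 scale (SE 0.16, adjusted p = 0.0407 by edgeR). Knockout library 1 overlapped wild type library 3 by a small margin. The call of Nuf2 ended without wild type library 1, 2 or 4 or knockout library 2, 3, 4 or 5 (0.0567 to 0.121) and with scaling by totals alone (0.128). Its partners in the same complex were not called, Ndc80 with a log2 fold change of 0.00 (SE 0.22) and Spc25 with -0.39 (SE 0.16, adjusted p = 0.111 by edgeR).

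Cenpa, the histone H3 variant that marks centromeres, was the most variable of the called genes in wild type, at 58.6, 37.2, 77.2 and 52.0 CPM. Knockout libraries gave 45.3, 37.2, 30.5, 39.9 and 36.4 CPM, so libraries 1 and 4 lay inside the wild type range and library 2 at its lower edge. The log2 fold change was -0.57 (SE 0.17, adjusted p = 0.0341 by edgeR), and Cenpa was called in 7 of 19 alternatives. The call ended without wild type library 1, 3 or 4 or knockout library 2, 3, 4 or 5 (0.0572 to 0.114), with scaling by totals alone (0.0765), with voom (0.064), after the length correction (0.1) and without knockout libraries 1 and 3 (0.0698). Hjurp, the chaperone that loads this histone, gave -0.03 (SE 0.22). The large fibrous-corona proteins Cenpe and Cenpf gave -0.12 (SE 0.25) and 0.14 (SE 0.20), with no call. The median of the 7 was -0.12, and 0.02 without knockout library 3.

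**Figure D4:**
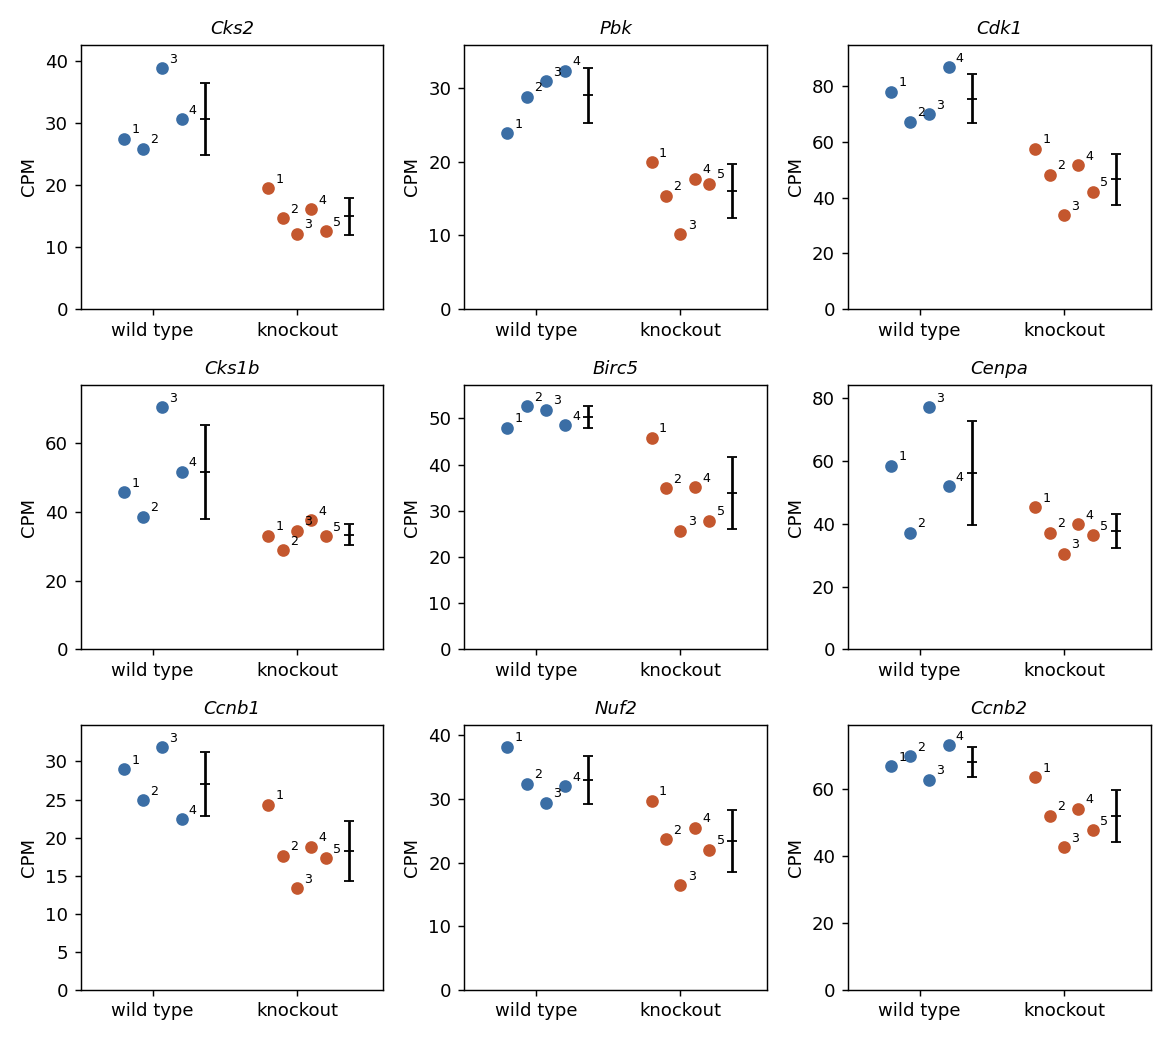
Level in CPM (vertical axes, each from 0) of the 9 members called lower, in each library with its replicate number, ordered by log2 fold change. The black mark and bar are the mean and SD of each group. For Cks2, Pbk, Cdk1, Cks1b and Birc5 all knockout libraries lie below all wild type libraries, and for the other 4 the groups overlap.

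None of the 5 genes of the spindle checkpoint and of anaphase promotion was called. Ube2c, the ubiquitin-conjugating enzyme of the anaphase-promoting complex, stood at 48.9, 49.0, 39.2 and 37.7 CPM in wild type and 43.4, 31.7, 23.2, 35.6 and 31.1 CPM in knockout. It was not called at -0.41 (SE 0.16, adjusted p = 0.0949 by edgeR). Leaving out knockout library 1, which alone reached the wild type range, gave an adjusted p of 0.0336. Bub1b, the most abundant of the role in CPM, gave -0.17 (SE 0.09, adjusted p = 0.225), and was called after the length correction (-0.26, adjusted p = 0.0469 by edgeR). Ttk, the checkpoint kinase MPS1, gave -0.53 (SE 0.27) at 11.2 ± 3.69 CPM (SD, n = 4) in wild type, and Bub1 -0.21 (SE 0.27). Cdc20, the activator that the checkpoint holds in check, stood at 34.0 ± 2.37 CPM (SD, n = 4) in wild type and 34.1 ± 5.36 CPM (SD, n = 5) in knockout (0.00, SE 0.13).

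None of the 12 spindle motors and microtubule-binding proteins was called either, and their median log2 fold change was -0.11, or 0.01 with scaling by totals alone. Nusap1, a microtubule bundler and the most abundant of the role per kb of gene length, was at 67.2, 53.1, 56.3 and 59.7 CPM in wild type. In knockout it was at 63.6, 50.03, 29.8, 56.3 and 45.5 CPM, with libraries 1 and 4 inside the wild type range (-0.27, SE 0.17, adjusted p = 0.312 by edgeR). Hmmr gave -0.32 (SE 0.19) and Tpx2, the activator of Aurora A, -0.26 (SE 0.14). At the other end Dlgap5, a spindle stabilizer, had the highest log2 fold change of all 53 members, 0.33 (SE 0.20, adjusted p = 0.305), and the kinesin Kif4 gave 0.10 (SE 0.20). Among the remaining motors Kif11 gave -0.11 (SE 0.18) and Kif2c -0.05 (SE 0.20), and the scaffold Aspm 0.00 (SE 0.16). Tacc3, which anchors spindle microtubules, gave 0.07 (SE 0.16), Ckap2 -0.23 (SE 0.18), Ckap2l -0.10 (SE 0.22) and Gtse1 -0.26 (SE 0.25).

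The 7 cytokinesis genes lay in a narrow band, from -0.29 for Ect2, the exchange factor that switches on RhoA, to -0.09 for Racgap1, its partner at the central spindle. None was called, and their median of -0.13 was -0.01 with scaling by totals alone. Racgap1, the most abundant per kb, was at 82.0, 86.1, 83.4 and 85.0 CPM in wild type, the tightest of the members named here, and at 105, 80.0, 53.9, 82.9 and 74.6 CPM in knockout. Library 1 was above and libraries 2, 3 and 5 below the whole wild type range (SE 0.14, adjusted p = 0.727 by edgeR). Between them lay Kif20a (-0.26), Kif20b (-0.14), Kif23 (-0.13), the actin-ring scaffold Anln (-0.12) and the spindle midzone bundler Prc1 (-0.10).

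None of the 3 genes for the proliferation marker and chromosome structure was called. Mki67, which coats mitotic chromosomes, stood at 274, 273, 250 and 315 CPM in wild type and 294, 225, 134, 213 and 228 CPM in knockout. Only library 1 reached the wild type range, and the log2 fold change was -0.35 (SE 0.17, adjusted p = 0.175 by edgeR). Mki67 was called without knockout library 1 (-0.48, adjusted p = 0.0461), without libraries 1 and 3 (-0.33, adjusted p = 0.026) and after the length correction (-0.50, adjusted p = 0.0371). Top2a, the topoisomerase that untangles sister chromatids, was at 181, 189, 148 and 164 CPM in wild type and 241, 193, 99.2, 178 and 173 CPM in knockout. Knockout libraries 1 and 2 lay above the wild type range, 4 and 5 inside it and 3 below it (0.05, SE 0.20, adjusted p = 0.883 by edgeR, and -0.10 after the length correction). The condensin subunit Smc4 gave 0.13 (SE 0.13).

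The 2 transcription factors of the wave were not called. Foxm1 stood at 39.4, 43.3, 36.4 and 38.0 CPM in wild type and 43.8, 34.5, 21.3, 29.3 and 32.1 CPM in knockout, with library 1 highest of all 9 and the other 4 below wild type (-0.29, SE 0.17, adjusted p = 0.264 by edgeR). Mybl2, which encodes B-MYB, was at 12.5, 8.81, 4.69 and 8.29 CPM in wild type and 8.58, 5.66, 6.73, 7.51 and 4.85 CPM in knockout, wholly within the wild type range (-0.37, SE 0.28, adjusted p = 0.394).

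Compared per kb of gene length, the most abundant members in wild type were Cks1b (68.1 CPM per kb), Ube2c (46.9), Cks2 (44.3), Ccnb2 (44.2), Bub1b (42.3) and Cenpa (42.1). Hjurp (1.6) and Cdc25c (1.63) were the least abundant per kb. In knockout Cks2 was at 21.6 CPM per kb, below Bub1b (37.6) and Ube2c (35.4). The 9 called members had a median length of 1646 bases, the other 44 of 3174 and all tested genes of 2714. After the length correction 8 members were lower (9.35% of tested genes) and 0 higher (6.74%), with a median of -0.28 for members and 0.01 for all tested genes. Cks1b, Ccnb2 and Cenpa were then no longer called, and Bub1b and Mki67 were called. When the length curve was not centred, a choice made after seeing the data, 26 members were lower (24.4% of tested genes) and the median of all tested genes was -0.20. The uncentred curve called the 9 members of the main fit and Mki67 (-0.71), Bub1b (-0.47), Cdc25b (-0.59) and Aurkb (-0.57), but not Ube2c (-0.34). It also called Foxm1 (-0.61), Plk1 (-0.49), Ttk (-0.80), Spc25 (-0.52), Kif11 (-0.45), Tpx2 (-0.59) and Nusap1 (-0.53). Hmmr (-0.64), Anln (-0.49), Ect2 (-0.60), Kif20a (-0.56), Kif20b (-0.50) and Kif23 (-0.41) were called by it as well.

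Levels were also set against the other members of the same library, as log2 CPM minus the median of the 53, which hardly depends on library scaling and takes out what all members share. By that measure Cks2 was 0.23 below the median in wild type (mean -0.23) and at -1.07 in knockout. Pbk went from -0.30 to -0.99, Cdk1 from 1.08 to 0.56 and Birc5 from 0.50 to 0.09. For these 4 and for Ccnb1 and Nuf2 the groups did not overlap, so that 6 members were lower within the list in every knockout library, library 1 included. Cdc20 (-0.06 to 0.12) and Smc4 (1.69 to 1.99) were higher within the list in every knockout library. The margin between the groups was narrow for Ccnb1, Cdc20 and Smc4. Of all tested genes, set against the same median, 1.18% were lower and 9.04% higher without overlap. Since the median is that of the members themselves, nothing is read from these shares, and the differences carry no test. Mki67 (2.96 and 2.76) and Top2a (2.25 and 2.44) overlapped between the groups.

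**Figure D5:**
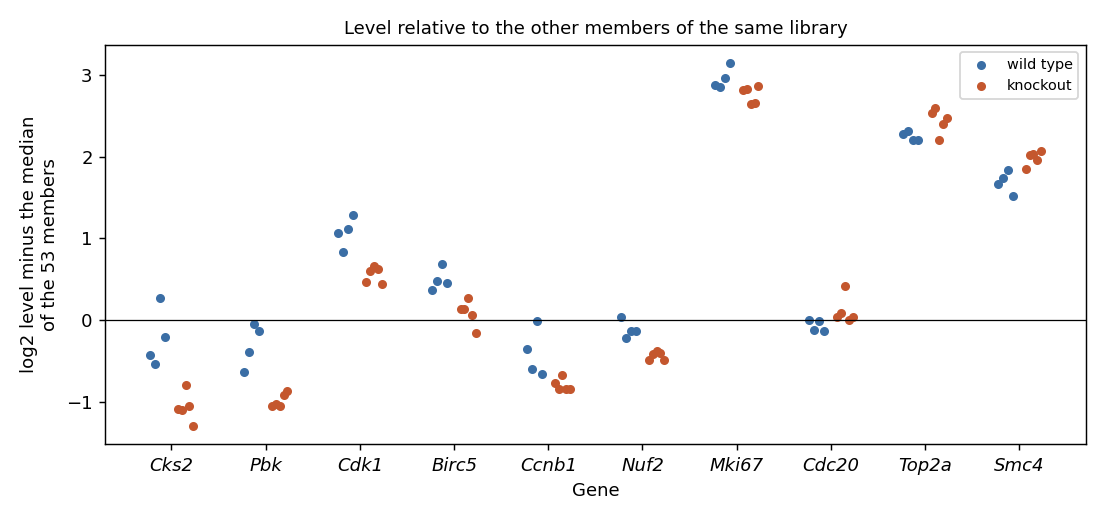
Log2 level of 10 members minus the median of all 53 members in the same library (vertical axis), with 1 point per library and the genes ordered by the difference between groups. The groups are separate, with knockout lower, for Cks2, Pbk, Cdk1, Birc5, Ccnb1 and Nuf2, and with knockout higher for Cdc20 and Smc4. They overlap for Mki67 and Top2a.

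Other genes of division, in lists that hold no member, were read in the same fit. Beside the counts of these lists, 11% of all tested genes were lower and 8.97% higher. Of 37 other G2 and mitosis genes 2 fell and 0 rose, with a median log2 fold change of -0.15. Stmn1, the microtubule destabilizer stathmin, fell by 0.65 on the log2 scale (SE 0.13, adjusted p = 0.00341 by edgeR). It was at 141 ± 6.84 CPM in wild type (SD, n = 4) and 90.1 ± 18.3 CPM in knockout (SD, n = 5), and after the length correction the adjusted p was 0.0508. Oip5, a factor for loading CENP-A, fell by 0.81 on the log2 scale (SE 0.20). Knockout library 3 was the lowest knockout library for 34 of the 37 and library 1 the highest for 31.

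Of 18 outer kinetochore and checkpoint genes outside the members 2 fell (median -0.18). Mad2l1, the checkpoint protein MAD2 that sequesters CDC20, stood at 62.3, 62.3, 66.9 and 79.0 CPM in wild type and 41.2, 35.8, 25.7, 42.0 and 36.9 CPM in knockout, without overlap (-0.90, SE 0.14, adjusted p = 0.000519 by edgeR). Ska1, which couples kinetochores to microtubule ends, fell by 0.73 (SE 0.21). Of 15 inner kinetochore genes 1 fell, Cenpx by 0.36 (SE 0.10), with a median of -0.36. At 636 bases it was no longer called after the length correction (adjusted p = 0.695 by edgeR), nor with scaling by totals alone (0.0928). The latter also ended the call of Ska1 (0.0521).

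Of 16 subunits and partners of the anaphase-promoting complex 2 fell (median -0.08, and 0.04 with scaling by totals alone). Anapc11, its RING subunit, stood at 121, 117, 149 and 127 CPM in wild type and 75.5, 68.8, 68.5, 73.1 and 67.0 CPM in knockout (-0.87, SE 0.09, adjusted p = 4.78e-05 by edgeR). Here the knockout libraries were close together and library 3 did not stand apart. Anapc10 fell by 0.81 (SE 0.15). Of 18 cohesin, condensin and separase genes 1 rose and 0 fell, Smc3 of cohesin by 0.41 (SE 0.10), which was not called after the length correction (adjusted p = 0.0607).

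Among 12 genes of MuvB, the pocket proteins and their E2F partners 2 fell (median -0.21). Rbbp4, a histone-binding subunit that MuvB and PRC2 share, fell by 0.57 (SE 0.08), and Lin52, the subunit through which MuvB joins B-MYB or the pocket proteins, by 0.82 (SE 0.23, adjusted p = 0.0214 by edgeR). Of 12 G1 cyclins and CDKs 2 rose and 0 fell. Ccnd2, cyclin D2, was at 303 ± 22.1 CPM in wild type (SD, n = 4) and 398 ± 28.8 CPM in knockout (SD, n = 5), and rose by 0.39 (SE 0.08, adjusted p = 0.00398 by edgeR), and Cdc25a, the phosphatase of G1 and S phase, by 0.38 (SE 0.12). After the length correction neither was called (0.0536 and 0.118).

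S phase genes lie nearest to the members in the cell cycle. Of 45, of which Ccne1 and Ccne2 also stand in the G1 list, 8 fell and 0 rose, with a median of -0.26, or -0.14 without knockout library 3. Pcna, the sliding clamp, and Orc6, of the origin recognition complex, fell by 0.61 and 0.54 on the log2 scale, with the smallest adjusted p of the list (0.000745 and 0.0108 by edgeR). The summed level was 2387, 2362, 2292 and 2452 CPM in wild type and 2312, 1911, 1463, 2159 and 1887 CPM in knockout. Library 3 was again the lowest and library 1 the highest of the knockout libraries, but library 1 lay inside the wild type range here, whereas it lay above that range for the 53 members. The 2 lists were not tested against each other.

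Markers of the macrophages and of other cell types were read beside these results. The 12 alveolar macrophage markers summed to 27069, 22965, 61308 and 35783 CPM in wild type libraries 1 to 4 and to 15149, 21874, 41560, 25313 and 27585 CPM in knockout libraries 1 to 5. Within each group these sums stood in the reverse order of the summed members, and Chil3 stood in the same order as the sums. Most of the range came from Chil3, which encodes a secreted chitinase-like protein and ran from 5453 CPM in knockout library 1 to 50835 CPM in wild type library 3. The markers did not share this order as a set. Among knockout libraries, Itgax, Fabp5, Car4, Krt79, Olr1 and Pparg were lowest in library 3, and Ear2 and Fabp4, like Chil3, highest. In knockout library 3, where the members were lowest, the summed erythroid markers stood at 201 CPM and those of monocytes at 9.40 CPM, against 15.9 to 68.3 CPM and 23.5 to 48.6 CPM in wild type. Knockout library 2 also had high erythroid markers (159.9 CPM), while the members were at 2355 CPM there. The neutrophil sum was highest in library 3 (129 CPM, the others 39.8 to 68.8 CPM in knockout and 50.5 to 86.0 CPM in wild type). S100a8 alone gave 101 CPM of it, and Cxcr2 (15.7 CPM) and S100a9 (5.45 CPM) were also highest in library 3 of all 9 libraries. Mmp8, at 6.11 CPM, was instead lowest there of all 9. Mmp9 and Retnlg were neither highest nor lowest in library 3, and Ly6g was at 0 in it. Epithelial and endothelial sums were lowest in library 3, at 119.5 and 84.1 CPM, of which Cdh1 gave 75.8 and Vwf 78.1 CPM. Epcam, of the epithelial list, was also lowest in library 3 of all 9 libraries, at 2.67 CPM. The epithelial marker Ager (3.55 CPM) and the endothelial markers Cdh5 (1.9), Tek (0.641) and Cldn5 (0.694), all at low levels, were instead highest in library 3. In knockout library 1, where the members were highest, granulocyte progenitor markers summed to 4.88 CPM, the most of any library. Ltf alone gave 3.74 CPM of it, and no other gene of that list was highest in this library. Elane and Prtn3 were at 0 in all 9 libraries, and Mpo and Ctsg at 0 in knockout library 1. T and NK cell markers summed to at most 19.2 CPM, B cell markers to at most 18.0 CPM and fibroblast markers to at most 9.74 CPM in any library. Of the tested genes in the 9 lists of other cell types, 1 was called, Hopx of the epithelial list. Of all tested genes 11% were lower and 8.97% higher. Hopx was at 55.0 to 73.8 CPM in wild type and 20.5 to 29.3 CPM in knockout, and which cells its transcript came from was not tested. Only 2 of 9 granulocyte progenitor and 2 of 9 T and NK cell markers passed the filter, against 9 of 9 epithelial ones. Markers below the filter could not be called. The part of these cell types in the members' levels was not tested.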

How the data were processed

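Polyadenylated RNA of 9 libraries (4 wild type, 5 Suz12 knockout) was sequenced from TruSeq libraries. The authors deposited raw counts per gene with gene lengths, made with featureCounts on mm10, per the submitters' processing notes. The aligner, versions, annotation, strand setting and treatment of reads that map to several genes are not stated in the sources at hand. The 9 single-library tables equalled the joint table. Symbols came from RefSeq (GRCm38.p6) for 25275 of 27179 identifiers.

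Counts were tested in R 4.3.3 with edgeR 4.0.16 (filterByExpr by group, TMM scaling, robust glmQLFit and glmQLFTest, Benjamini-Hochberg adjustment over 12840 genes). The test was checked on simulated counts in which genes varied independently. That check did not cover shifts shared by many genes of a library, or effects of gene length. Standard errors derive from the F statistic. DESeq2 1.42.0 and limma 3.58.1 (voom) served as alternatives. The length correction is an offset, centred at 0 in every library, from a loess fit (span 0.5) of log2 level, minus its mean over libraries, on log2 gene length. The annotated spans of 12 members (Aurka, Anln, Ccna2, Cdc20, Ect2, Foxm1, Hjurp, Kif20a, Kif20b, Nusap1, Prc1 and Smc4) overlap another counted gene, so reads in the overlap may be shared or uncounted.

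The members, roles and lists were chosen with earlier results of these data known. Per-library values are given for called members, for the most abundant member per kb of each role, and for Mki67, Top2a, Foxm1, Mybl2 and Cdc25b. From each other list up to 2 called genes with the smallest adjusted p are named. Members called only in an alternative are named with that value, and all other members by their fold change. Single marker genes of cell types were named after their values were seen.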

Additional observations from a re-analysis of the deposited data

How the results depend on the processing

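The count of 9 members called lower stayed between 8 and 10 with DESeq2, voom, no filter, a stricter filter, the length correction, thinning to equal depth and, chosen after seeing the data, without knockout libraries 1 and 3. It was 4 with scaling by totals alone, where 7.89% of tested genes were lower and 15.3% higher and the median of all tested genes moved from 0.04 to 0.15. It was 26 when the length curve was not centred, a choice added after seeing the data, under which 24.4% of tested genes were lower, 3.64% were higher and the median of all tested genes moved to -0.20. Leaving out 1 library at a time gave 5 to 13 members lower, 0 higher and medians of -0.33 to -0.13. The member median minus that of all tested genes was -0.37 to -0.17 under all 19 alternatives, and no member was called higher in any. Top2a, not called in any of these, changed sign with voom (-0.00), with the length correction (-0.10, or -0.30 without centring) and without knockout library 1 (-0.08), and was at 0.21 without knockout library 3. Racgap1, likewise not called, was at 0.03 with scaling by totals alone and at 0.03 without knockout library 3, and at -0.21 without knockout library 1. Same-numbered libraries showed no clear pairing: their deviations from the group means correlated at 0.036, 0.032, -0.057 and 0.115. A pairing weaker than the differences between single libraries could not be seen this way. With replicate number as a block 6 members were lower (8.59% of tested genes), with a median of -0.20, and Ccnb1, Ccnb2 and Cenpa were not called (adjusted p = 0.0786, 0.0513 and 0.114 by edgeR). Each called member had at least 310 counts in every library, and Mybl2 and Cdc25c rested on the fewest, with 59 and 0 counts in wild type library 3.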
